A study of Mus musculus with 157 samples.

Results

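Cytokines and cytokine receptors of B cells were followed on ribosomes of splenic mouse B cells activated with lipopolysaccharide (LPS) and then exposed to DNA damage. The genes were chosen by name from 9 candidates, and 8 of them had a row among the 19600 genes of the count table. They comprised 5 cytokine genes (Il6, Il10, Tnf, Lta and Ltb) and 3 receptor chain genes (Il2ra, Il4ra and Il21r), and Ebi3 was not analysed here. Primary B cells of C57BL/6Babr mice were grown with 10 µg/ml LPS in all groups. The LPS group received LPS for 48 h and nothing else. The LPS+ET group also received 20 µM etoposide, a topoisomerase II poison that breaks DNA, for 4 h. The LPS+ET+KU group had 47 h of LPS and then 10 µM KU55933, an inhibitor of the DNA damage kinase ATM, for 1 h before the same etoposide treatment. Cycloheximide at 100 µg/ml was added to all cultures for 3 min to hold ribosomes on the mRNA. No group without LPS was part of these data, so the effect of LPS itself was not measured. A group with KU55933 and no etoposide was missing as well.

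B cells contribute to immunity not only through antibodies but also through secreted cytokines. Interleukin-6 promotes inflammation and plasma cell differentiation, interleukin-10 restrains inflammation, and Tnf, Lta and Ltb belong to the tumour necrosis factor family, in which lymphotoxin alpha and lymphotoxin beta combine on the cell surface and organise lymphoid tissue. Il2ra encodes CD25, the alpha chain that raises the affinity of the interleukin-2 receptor, and Il4ra and Il21r encode the chains through which B cells read the class switch cytokines interleukin-4 and interleukin-21. The mRNAs of many such cytokines carry AU-rich elements in the 3′ untranslated region (UTR), which are known to govern mRNA decay and translation.

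Lysates were separated on sucrose gradients, and each fraction was sequenced from the mRNA 3′ end. A tag is counted about once per mRNA, so its level does not scale with transcript length and levels of different genes can be set side by side. Monosomes sedimented in fractions 4 to 7 and light polysomes in 8 to 10, while heavy polysomes, with the most ribosomes per mRNA, reached 11 to 16. The headers of the table give every library a treatment, a fraction and a code from LUL15 to LUL18. Libraries with 1 treatment and 1 code were taken as 1 gradient, and the 12 gradients shared 4 codes, each with 1 gradient per treatment. The gradients of 1 code are called a pool here, and neither the headers nor the labels say what the codes mark or whether they stand for different mice. The p-values measure only the spread between these gradients. The 156 libraries held between 14724 and 4170688 counts (median 811932), and 12 of them held under 100000. The gradients held between 6404957 and 21449781 counts. One further library of fraction 17, from LPS, held 777 counts and none of the 8 genes.

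Pool LUL16 stood apart in the treated groups. Levels are given as CPM (the counts of a gene scaled to the same total in every gradient). The fractions were loaded with equal RNA, so a summed level weighs each fraction by its sequencing depth. It is a share of the counted tags and cannot show a loss of total mRNA on polysomes. Cdkn1a, a p53 target that responds to DNA damage, lay at 22.02 to 32.4 CPM in the LPS gradients. It was at 501 CPM in the LPS+ET gradient of LUL16 against 724 to 904 in the other LPS+ET gradients, and at 402 CPM in the LPS+ET+KU gradient of LUL16 against 695 to 837. The LPS+ET gradient of LUL16 was also the shallowest and held 4 of the 12 libraries under 100000 counts, those of fractions 11, 12, 15 and 16. Values without a LUL16 gradient or the whole pool stand beside the results that they move most. The whole pool was left out only after the data were seen. All these values show how far a result rests on LUL16 and are not counted as support for a change.

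The cells carried B cell markers. Their summed level was 2705 to 3250 CPM in LPS, 1946 to 2423 in LPS+ET and 2194 to 2926 in LPS+ET+KU, with all 8 markers in the table. Among them the B cell factor Pax5 was the lowest, at 0.994 to 1.75 CPM in LPS, 0.349 to 0.781 in LPS+ET and 0.224 to 2.66 in LPS+ET+KU. Of 10 T cell markers 9 were in the table, and they summed to 148 to 188 CPM in LPS, 122 to 322 in LPS+ET and 101 to 408 in LPS+ET+KU. Most of that sum was Lck (80.2 to 372), followed by Cd2 (6.05 to 31.2). The defining markers Cd3e, Cd3g and Cd8a stayed under 1 CPM in every gradient, and Cd28, Thy1, Cd3d and Cd5 reached at most 4.47, 2.61, 1.79 and 1.21 CPM. The highest T cell sums, 322 and 408 CPM, were those of the treated LUL16 gradients. Of 10 myeloid markers 9 were in the table, with sums of 31.7 to 86.7, 48.1 to 163 and 32.4 to 125 CPM in the 3 groups, and Lyz2 and S100a8 had the highest mean levels. The 5 measured dendritic cell markers summed to 10.6 to 13.2, 11.5 to 20.0 and 16.4 to 32.1 CPM, and the 4 measured NK cell markers to at most 1.96 CPM. The 5 measured plasma cell markers summed to 2366 to 2761, 2635 to 4608 and 2319 to 3791 CPM. The part of other cells in the results was not tested, and in bulk samples fewer cells of a type and less RNA per cell cannot be told apart.

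Ltb, Tnf and Lta sit side by side on chromosome 17 of the GRCm38 assembly. Ltb (ENSMUSG00000024399) spans chr17:35194439-35196320 on the plus strand. Tnf (ENSMUSG00000024401) follows after 3060 bases at chr17:35199381-35202007 on the minus strand, and Lta (ENSMUSG00000024402) after another 1157 bases at chr17:35203165-35205351, also on the minus strand. Il6 (ENSMUSG00000025746) lies at chr5:30013161-30019968 and Il10 (ENSMUSG00000016529) at chr1:131019845-131024974, both on the plus strand. The receptor genes, all on the plus strand, are Il2ra (ENSMUSG00000026770) at chr2:11642792-11693191, Il4ra (ENSMUSG00000030748) at chr7:125552282-125579472 and Il21r (ENSMUSG00000030745) at chr7:125603429-125633570.

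The 8 mRNAs differed in the AU-rich pentamer ATTTA of their 3′ UTRs. Tnf held 8 copies in 764 bases, Il6 held 6 in 427, Il10 held 6 in 706, Il2ra held 4 in 3411, Lta held 3 in 572 and Il21r held 2 in 579. Ltb (156 bases) and Il4ra (2420 bases) held none. Among 15787 genes with an annotated 3′ UTR, 65.2% held at least 1 pentamer and the median was 1. The longer form TTATTTATT, which contains the pentamer, occurred 5 times in Tnf (overlapping copies counted) and once in Lta, and 7.25% of genes held it. The densest 30 bases are shown for 3 cytokines that differ in this respect, with pentamers in capitals. They are the 3′ UTR exon sequences of chr17:35199679-35199708 (Tnf, minus strand), chr17:35203408-35203437 (Lta, minus strand) and chr5:30019677-30019706 (Il6, plus strand), 5′ to 3′.
Tnf: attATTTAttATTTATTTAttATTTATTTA
Lta: tATTTAtggagagaaaagttaagttATTTA
Il6: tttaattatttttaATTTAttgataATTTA

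Counts of each gene came from its poly(A) sites, and these differ between the genes. The 5 cytokine genes were each counted at 1 site, 0 to 14 bases from an annotated transcript end, and the Ltb site also falls in an exon of a noncoding transcript. Il2ra was counted at 3 sites. Of its counts over all libraries, 77.3% came from position 11692187, which is 1006 bases before the annotated end, 14.0% from the end itself and 8.72% from a site 2173 bases before it. Il4ra was counted at 2 sites with 70.9% at position 125577968, the end of the shorter transcript Il4ra-205, and 29.1% at the end of the gene. Il21r had 46.0% at a site 80 bases past its annotated end, 38.3% at position 125633272, the end of transcript Il21r-202, and 15.8% at a site 2457 bases past the end. The 30 bases before the main and the distal Il2ra site (chr2:11692158-11692187 and chr2:11693164-11693193, plus strand) and before the Ltb site (chr17:35196273-35196302, plus strand) show the poly(A) signal AATAAA in capitals.
Il2ra, main site: AATAAAagaattagtaaataatattttaaa
Il2ra, distal site: ataagctaaAATAAAccatttcttacccat
Ltb: cacgaattttgaaAATAAAgaatgtaaact

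Promoters were read because Il6, Ltb and Tnf are textbook targets of NF-κB, a factor that LPS activates. A match to the NF-κB consensus was looked for on both strands in the 250 bases before each start site (RefSeq, GRCm38.p6). It was found in 3 of the 7 members with a promoter entry, and in 1281 of 32851 promoters in all (3.9%). Tnf had no match. The matched bases are in capitals, and for Il2ra 3 overlapping matches share 11 bases. The windows are chr5:30013050-30013099 (Il6), chr17:35194400-35194438 (Ltb) and chr2:11642571-11642621 (Il2ra), all plus strand, and the matches end 34, 77 and 190 bases before the RefSeq start site. For Il6 and Ltb this site differs from the gene start given above.
Il6: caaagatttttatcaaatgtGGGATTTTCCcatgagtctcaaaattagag
Ltb: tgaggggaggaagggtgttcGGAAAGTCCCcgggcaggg
Il2ra: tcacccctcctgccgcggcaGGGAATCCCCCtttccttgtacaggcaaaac

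In B cells with LPS alone, receptor chains and Ltb were the more abundant transcripts on ribosomes and the other cytokines the rarer. The summed level over fractions 4 to 16 was highest for Il21r (161 ± 8.68 CPM, SD, n = 4), followed by Ltb (106 ± 21.9), Il2ra (80.5 ± 17.1), Il4ra (49.2 ± 9.90), Il10 (27.3 ± 4.10), Tnf (12.9 ± 3.61), Il6 (7.12 ± 1.11) and Lta (2.06 ± 0.401). The ranges of neighbours in this order did not overlap, except for Ltb (89.0 to 135) and Il2ra (61.7 to 100.5), and Tnf (lowest 8.10) and Il6 (highest 8.02) were nearly in contact. Il21r was above 94.7% of all genes in the table and Lta above 49.3%. Lta gave only 15 to 39 counts per LPS gradient, so its values carry the largest counting error.

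Lymphotoxin and TNF transcripts made up less of the ribosome-associated counts after etoposide when the pools were taken into account. Ltb measured 135, 112, 89.2 and 89.0 CPM in the LPS gradients of pools LUL15 to LUL18 and 25.5, 48.6, 18.3 and 15.6 CPM in the LPS+ET gradients. Every LPS+ET gradient was below every LPS gradient, and the within-pool log2 ratio was −1.203 in LUL16 and −2.28 to −2.51 in the other pools. With treatment as the only term, edgeR's quasi-likelihood test gave a log2 fold change of −2.09 ± 0.53 (SE) with an adjusted p of 0.0113, which missed the threshold of 0.01. With the pool as a second term it gave −2.28 ± 0.28 for Ltb (adjusted p = 2.64e-05). Lta measured 2.03, 2.01, 1.63 and 2.60 CPM in LPS and 0.611, 1.25, 0.543 and 0.854 CPM in LPS+ET, from 7 to 10 counts per gradient. These groups did not overlap either, and the log2 fold change of Lta was −1.49 ± 0.41 (adjusted p = 0.0185, and 0.00194 with the pool term).

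Tnf measured 16.6, 12.5, 14.4 and 8.10 CPM in LPS. After etoposide it measured 4.63, 18.1, 3.10 and 2.82 CPM, so that 3 gradients lay below all LPS gradients and the LUL16 gradient above them. The log2 fold change of Tnf was −0.99 ± 0.56 (edgeR, adjusted p = 0.237) and with the pool term −1.33 (adjusted p = 0.00587). Without the LPS+ET gradient of LUL16 the log2 fold change was −2.01 for Tnf (adjusted p = 0.00386) and −2.57 for Ltb (adjusted p = 0.00498), in a fit that called 13.5% of all genes. In that gradient the T cell markers summed to 322 CPM, mostly Lck at 294 CPM, against 122 to 150 CPM in the other LPS+ET gradients, and their part in the Tnf and Ltb values was not tested.

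Il6, which acts on plasma cells and in the acute phase response, was rarer after etoposide in each pool. It measured 7.10, 5.56, 8.02 and 7.80 CPM in LPS and 4.37, 5.15, 4.73 and 4.53 CPM in LPS+ET, groups that did not overlap. The log2 fold change of Il6 was −0.71 ± 0.33 (edgeR, adjusted p = 0.145, and 0.0552 with the pool term). Without pool LUL16 it was −0.86 for Il6 (adjusted p = 0.00452). Il10 measured 31.4, 21.7, 27.9 and 28.4 CPM in LPS and 19.2, 41.1, 21.8 and 21.9 CPM in LPS+ET. Its LPS+ET gradients were thus lower than their LPS partners in 3 pools and higher in LUL16 (log2 fold change −0.18, adjusted p = 0.725). The log2 fold change of Il10 was −0.50 without the LPS+ET gradient of LUL16 (adjusted p = 0.173) and −0.58 without the whole pool (adjusted p = 0.117).

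None of the 3 receptor chain transcripts was called after etoposide. Il21r lay at 160, 150, 167 and 169 CPM in LPS and at 129, 123, 151 and 141 CPM in LPS+ET. It was lower in all 4 pools by 0.14 to 0.31 on the log2 scale, and the log2 fold change was −0.36 ± 0.17 (edgeR, adjusted p = 0.160, and 0.0336 with the pool term). Il4ra measured 57.6, 56.9, 36.98 and 45.3 CPM in LPS and 66.1, 81.2, 36.6 and 53.5 CPM in LPS+ET (log2 fold change 0.15, adjusted p = 0.737). Il2ra measured 72.2, 61.7, 100.5 and 87.5 CPM in LPS and 101, 43.6, 120.3 and 87.7 CPM in LPS+ET (log2 fold change 0.02, adjusted p = 0.982). The groups of both genes overlapped over most of their ranges.

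In the comparison of LPS+ET with LPS, edgeR with treatment alone called 0 of the 8 genes and 12.7% of 12755 genes tested. At an unadjusted p under 0.05 it had 3 of 8 (34.4% of all genes), and DESeq2 called 2 (14.3%). With the pool term 3 of 8 were called (Ltb, Lta and Tnf), beside 26.7% of all genes. Groups without overlap were seen for 3 of 8 genes (Il6, Ltb and Lta, all lower) and for 26.4% of all genes. No result about the 8 genes as a group is read from these shares. The median log2 fold change was −0.53 over the 8 genes and 0.03 over all genes.

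**Figure D1:**
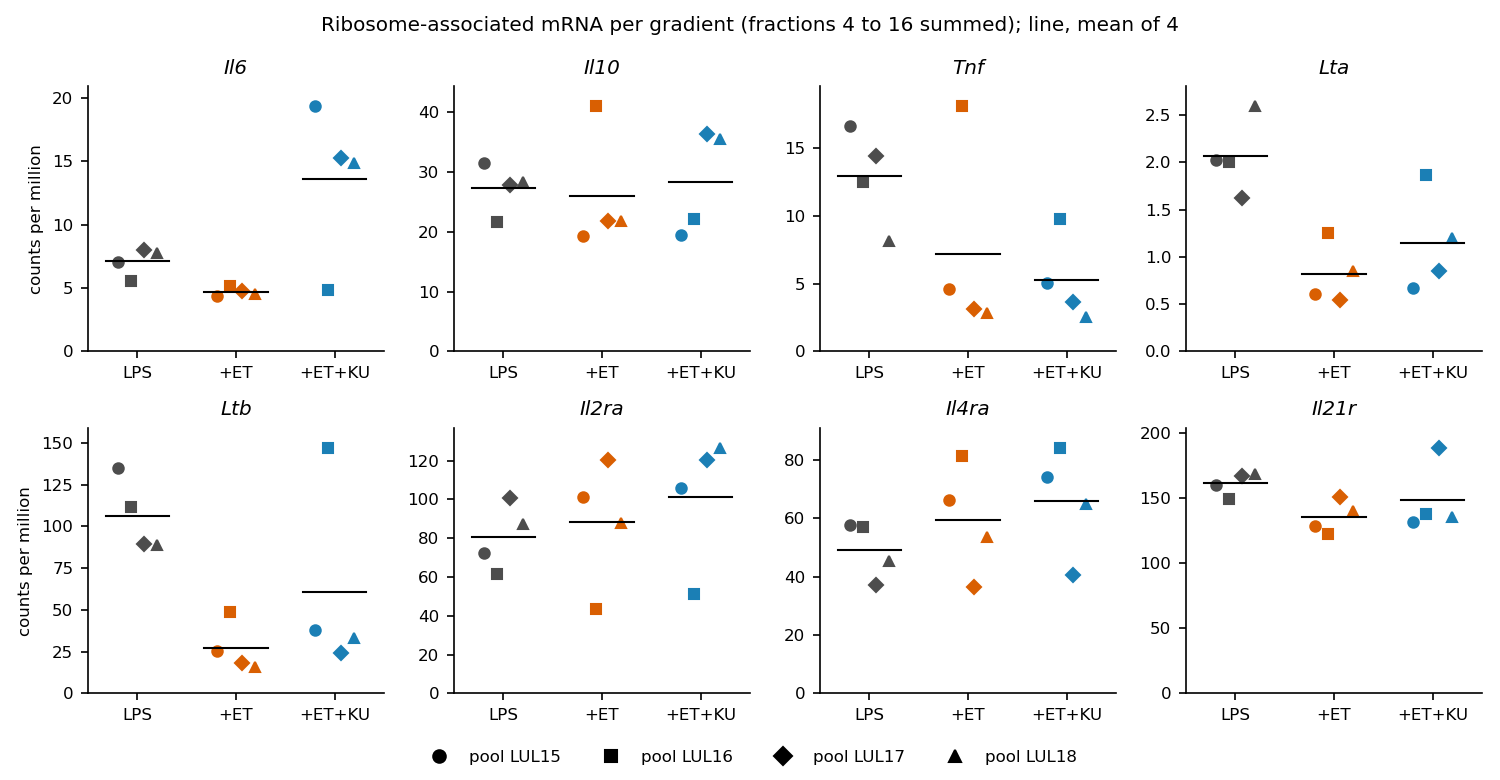
Level of each gene in every gradient, in CPM of the gradient's summed fractions (vertical axis, linear from 0) for LPS, LPS+ET and LPS+ET+KU. Each symbol is 1 gradient with its pool as the shape and lines are means of 4. All LPS+ET points of Ltb, Lta and Il6 lie below their LPS points, and the square of LUL16 is the high LPS+ET point of Tnf (18.1) and the high LPS+ET+KU point of Ltb (147).

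The ATM inhibitor comparison sets LPS+ET+KU beside LPS+ET. An effect of KU55933 itself cannot be told apart here from a part of ATM in the etoposide response, because no group received KU55933 without etoposide. Il6 had the largest log2 fold change of the 8 genes against LPS+ET. It measured 19.4, 4.85, 15.2 and 14.9 CPM in LPS+ET+KU, so that 3 gradients were above all gradients of the other groups and the LUL16 gradient was among the LPS+ET values. Against LPS+ET the log2 ratio within pools was 2.15, −0.09, 1.69 and 1.72. The log2 fold change of Il6 was 1.52 ± 0.33 with an adjusted p of 0.0329 (edgeR), and 1.46 with an adjusted p of 0.00445 when the pool was a term. Without the LPS+ET+KU gradient of LUL16 it was 1.81 for Il6 (adjusted p = 4.03e-04), in a fit that called 0.577% of all genes. Against LPS the log2 fold change of Il6 was 0.81 (adjusted p = 0.0834, and 0.0400 with the pool term), and without that gradient 1.09 (adjusted p = 0.00104). In that gradient the myeloid markers summed to 32.4 CPM, against 62.9 to 125 CPM in the other LPS+ET+KU gradients. In LPS+ET, where Il6 was at 4.37 to 5.15 CPM, they summed to 48.1 to 163 CPM. The part of myeloid cells in the Il6 values was not tested.

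Ltb measured 38.03, 147, 24.4 and 33.3 CPM in LPS+ET+KU. Compared with LPS+ET it was higher in 4 of 4 pools, by log2 ratios of 0.42 or more, and edgeR gave 1.18 ± 0.51 as the log2 fold change (adjusted p = 0.280, and 0.0293 with the pool term). Without the LPS+ET+KU gradient of LUL16 it was 0.24 for Ltb (adjusted p = 0.751), and without the whole pool 0.70 (adjusted p = 0.0743). Compared with LPS it was lower in 3 of 4 pools. The log2 fold change was −0.92 (adjusted p = 0.210) and became −1.30 with the pool term (adjusted p = 0.00206). Without the LPS+ET+KU gradient of LUL16 it was −1.86 for Ltb (adjusted p = 0.00214), in a fit that called 13.1% of all genes. In that gradient the T cell markers summed to 408 CPM, mostly Lck at 372 CPM, against 101 to 143 CPM in the other 3. Their part in the Ltb values was not tested. Lta measured 0.673, 1.86, 0.854 and 1.203 CPM and was higher than in LPS+ET in 4 of 4 pools, on 6 to 40 counts per gradient (log2 fold change 0.57). Tnf measured 5.05, 9.79, 3.61 and 2.56 CPM, lower than in LPS in 4 of 4 pools. Its log2 fold change against LPS was −1.39 ± 0.56 (adjusted p = 0.0882) and −1.60 with the pool term (adjusted p = 0.00160).

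Il10 and the receptor chains did not pass the test in either comparison of LPS+ET+KU. Il10 measured 19.5, 22.1, 36.3 and 35.5 CPM, with log2 fold changes of 0.14 against LPS+ET and −0.04 against LPS. Il2ra measured 106, 51.2, 120.5 and 127 CPM and was higher than in LPS+ET in 4 of 4 pools (log2 fold change 0.21). Il4ra measured 74.3, 84.2, 40.7 and 64.9 CPM and was higher than in LPS in 4 of 4 pools (log2 fold change 0.30). Il21r measured 132, 138, 189 and 136 CPM (0.13 against LPS+ET and −0.23 against LPS).

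With treatment alone, edgeR called 0 of 8 genes in LPS+ET+KU against LPS+ET, where 0.455% of all genes were called, and 0 of 8 against LPS, where 10.7% were. At an unadjusted p under 0.05 there were 2 and 3 of 8 (15.9% and 35.9% of all genes), and DESeq2 called 1 and 0 (2.74% and 14.4%). With the pool term 1 of 8 (Il6) was called against LPS+ET, beside 6.36% of all genes, and 2 of 8 (Ltb and Tnf) against LPS, beside 28.1%. No gene of the 8 had groups without overlap in these comparisons, against 8.26% and 26.3% of all genes. The comparisons share their gradients in pairs and are not independent of each other. Without the whole pool LUL16, and with 9 gradients, edgeR called Il6, Ltb, Lta and Tnf in LPS+ET against LPS, Il6 in LPS+ET+KU against LPS+ET, and Il6, Ltb and Tnf in LPS+ET+KU against LPS. These fits, added after the data were seen, called 16.3%, 2.14% and 14% of all genes.

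**Figure D2:**
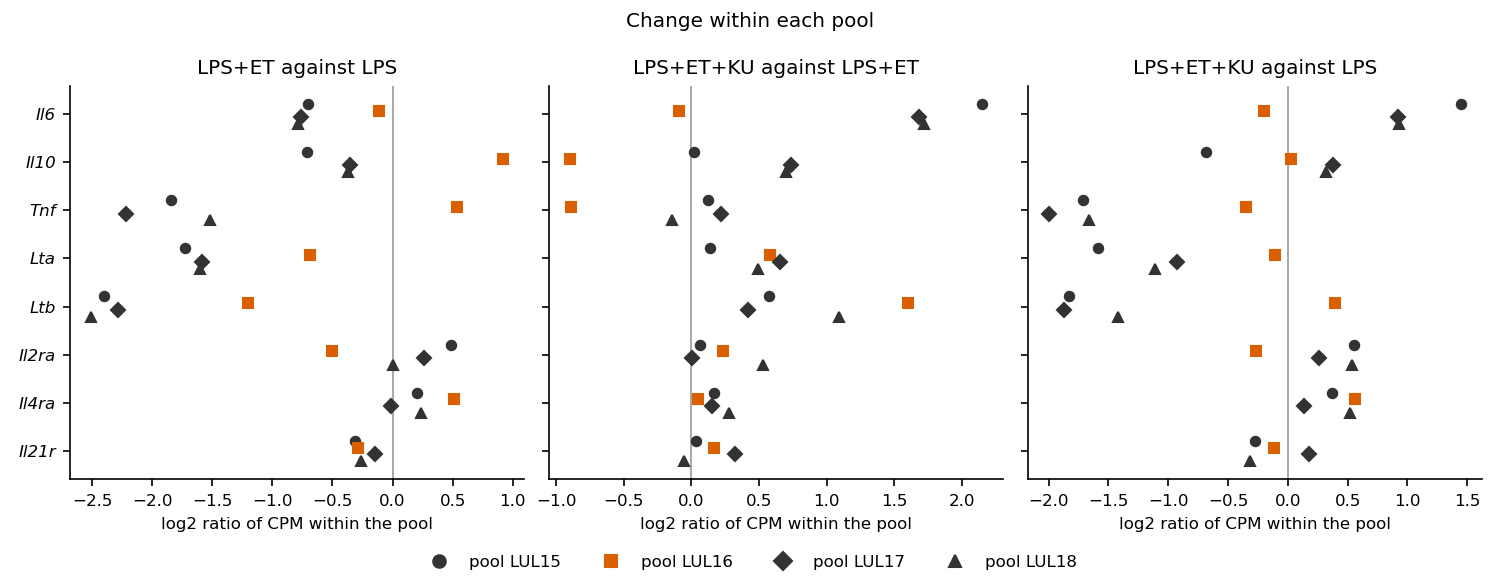
Change of each gene within each pool, as the log2 ratio of CPM between the 2 gradients of that pool (horizontal axis, a panel per comparison, the line marks no change). The orange squares of LUL16 stand apart from the other pools for Tnf and Il10 after etoposide (0.53 and 0.92) and for Il6 with the inhibitor (−0.09).

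Along the gradient of LPS cells the 8 mRNAs peaked at different fractions. Il10 peaked in the monosomes at fraction 7 (82.5 ± 23.3 CPM of that fraction), Il6 at fraction 8 (17.2 ± 4.00) and Tnf at fraction 9 (33.4 ± 10.1), the last 2 in light polysomes. Ltb (207 ± 54.8), Il2ra (138 ± 45.1) and Lta peaked at fraction 11, Il21r at fraction 12 (267 ± 29.04) and Il4ra at fraction 15 (101 ± 22.9). After etoposide, and with the inhibitor, the peak of Il21r was at fraction 13 and that of Il4ra at fraction 14, while Il10 and Il2ra kept their peak fractions. The peak of Ltb was at fraction 10 in both treated groups (41.3 ± 30.2 CPM after etoposide, 122 ± 123 when KU55933 preceded it). Some peaks were near ties. Il4ra in LPS measured 99.4 ± 32.8 CPM at fraction 14, and Ltb in LPS+ET 40.6 ± 10.1 CPM at fraction 11. Moves of single peaks were not tested. The means of the rare Il6, Tnf and Lta at single fractions rested on few counts after etoposide, with SDs as large as the means at some of them.

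**Figure D3:**
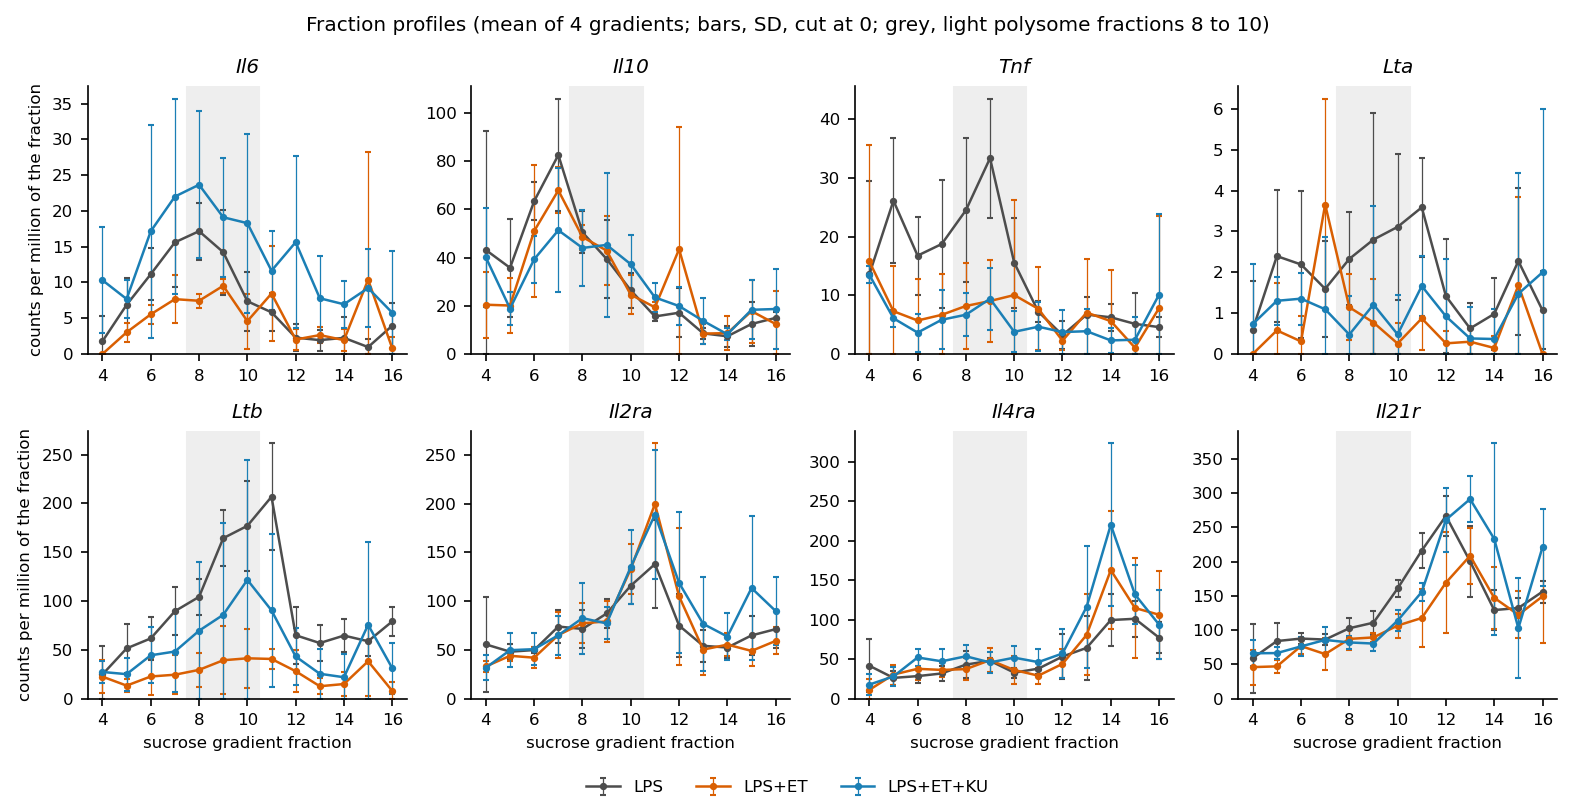
Level of each gene along the sucrose gradient, in CPM of each fraction library (vertical axis) against fraction 4 to 16, as the mean of 4 gradients with SD bars. Il10, Il6 and Tnf peak at fractions 7 to 9 in LPS cells, and Il21r and Il4ra at fractions 12 and 15.

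The share of each mRNA in heavy polysomes summarised these profiles. Each library was first scaled to the same total, so that every fraction counted equally. In LPS the heavy share was 18.5% ± 2.97 (SD, n = 4) for Il10, 18.9% ± 4.84 for Il6 and 19.5% ± 7.86 for Tnf. It was 44.5% ± 6.03 for Ltb, 47.1% ± 4.67 for Il2ra, 61.2% ± 4.64 for Il21r and 63.4% ± 3.56 for Il4ra. Lta had under 100 counts per gradient and was not tested for its share. Of 8000 genes with enough counts, whose median share was 55.2%, only 3.69%, 3.79% and 4.18% had a lower share than Il10, Il6 and Tnf. Il4ra and Il21r were above 68.7% and 63.6% of genes.

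Short coding sequences hold fewer ribosomes, so the shares were also set beside genes of like coding length. The coding sequence was 534 bases for Il10, 633 for Il6, 705 for Tnf, 804 for Il2ra, 918 for Ltb, 1587 for Il21r and 2430 for Il4ra. Among 7593 genes with a length, Spearman's rho of heavy share and coding length was 0.54 across genes, which are not independent replicates. Among 2277 genes with over 600 and up to 1200 coding bases the median share was 52.5%, and 1.10% of them were below Il6 and 1.58% below Tnf. Ltb and Il2ra of the same length class were above 30.2% and 35.4% of it. Among 1145 genes of up to 600 bases the median was 35.4%, and 10.48% were below Il10. Il21r and Il4ra were above 56.1% and 37.5% of the genes in their classes. The low-share Il6, Il10 and Tnf held 6, 6 and 8 copies of the AU-rich pentamer. Of the mRNAs with a higher share, Il2ra, Il21r, Ltb and Il4ra held 4, 2, 0 and 0. A link between pentamers and heavy share was not tested.

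**Figure D4:**
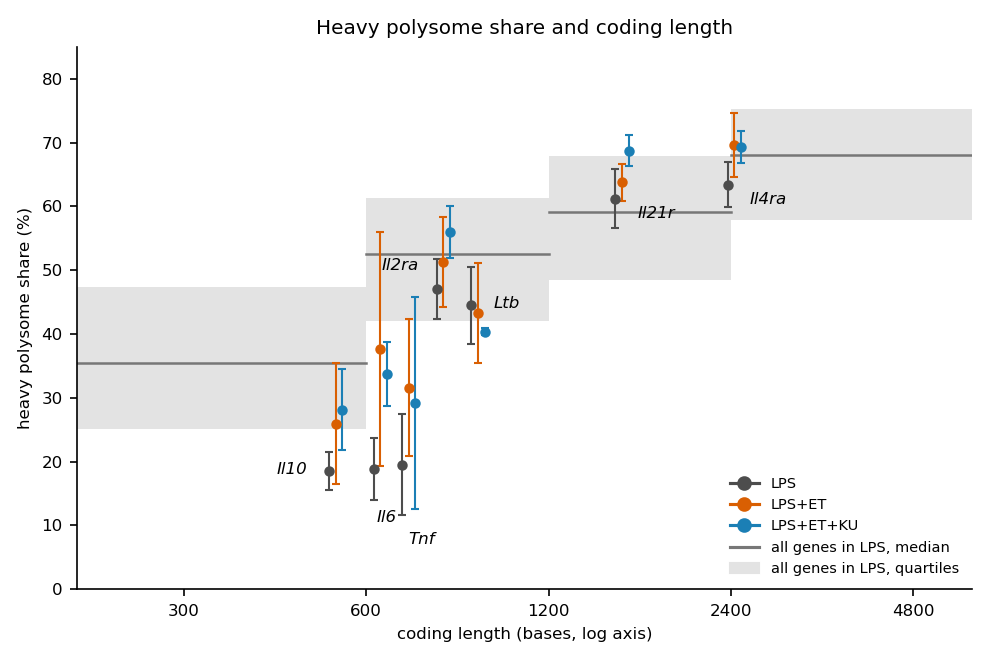
Heavy polysome share in percent (vertical axis) against coding length in bases (log axis) for 7 genes in the 3 groups, as means of 4 gradients with SD bars. Grey bands and lines give quartiles and medians of all genes of that length class in LPS. Il6 and Tnf in LPS (18.9% and 19.5%) lie below the band of their class, whose median is 52.5%, and Il10 (18.5%) lies below its own band.

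After etoposide the heavy shares of the 3 low-share cytokines were higher in all 4 pools, with overlapping or widely spread values. How many of all genes were higher in all 4 pools was not counted. For Il6 the shares were 11.7%, 20.1%, 22.2% and 21.4% in LPS and 26.2%, 65.0%, 31.7% and 27.6% in LPS+ET. The groups did not overlap, but the value of 65.0% came from 33 counts in the whole gradient, and 18.2% of these counts as deposited were in heavy fractions. The logit difference of Il6 was 0.94 ± 0.31 (limma, adjusted p = 0.109), and without pool LUL16 0.60 (adjusted p = 0.167). For Il10 the shares were 16.0%, 22.8%, 17.7% and 17.7% in LPS and 19.5%, 40.1%, 22.1% and 21.998% in LPS+ET (logit difference 0.40, adjusted p = 0.316). The logit difference of Il10 was 0.18 without the LPS+ET gradient of LUL16 (adjusted p = 0.615) and 0.27 without the whole pool (adjusted p = 0.470). In the counts as deposited the Il10 share in heavy fractions of LUL16 was lower in LPS+ET (13.7%) than in LPS (25.9%). For Tnf they were 10.8%, 14.9%, 25.7% and 26.6% in LPS and 16.3%, 39.3%, 31.6% and 39.03% in LPS+ET (0.66, adjusted p = 0.380).

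With the inhibitor the heavy shares of 5 genes were above those of LPS in 4 of 4 pools. These were Il6 (27.8% to 39.998%), Il10 (22.8% to 37.2%), Il2ra (50.4% to 60.2%), Il4ra (66.7% to 72.0%) and Il21r (66.83% to 72.2%). How many of all genes did so was not counted, so no result about these genes as a group is read from it. In the counts as deposited, mean shares in LPS and LPS+ET+KU were 68.3% and 65.6% for Il4ra and 69.5% and 69.3% for Il21r. Il6, Il10 and Il2ra had higher means in LPS+ET+KU on that scale too. None of these 5 genes passed the test. The lowest adjusted p in limma was 0.153 for Il6 (logit difference 0.79), followed by 0.176 for Il10 (0.53), 0.176 for Il21r (0.33) and 0.224 for Il2ra (0.36). Over the alternative fits limma gave adjusted p values of 0.0113 to 0.731 for Il6 and 0.0113 to 0.865 for Il10. Ltb kept a narrow share of 39.7% to 40.9% in LPS+ET+KU against 38.01% to 52.5% in LPS, with a logit difference of −0.17 (adjusted p = 0.630). No share of the 7 tested genes was called in any comparison, beside 0.312% of 8000 genes in LPS+ET against LPS, 0% in LPS+ET+KU against LPS+ET and 0.863% in LPS+ET+KU against LPS. At an unadjusted p under 0.05 the counts were 1, 0 and 4 of 7, beside 20.6%, 8.56% and 20.9% of all genes.

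A change in the shape of the profile was tested as a treatment by fraction interaction in edgeR, without summing fractions, with a term per gradient. None of 7 genes was called, beside 5.72%, 3.63% and 11% of all genes in LPS+ET against LPS, LPS+ET+KU against LPS+ET and LPS+ET+KU against LPS. At an unadjusted p under 0.05 there were 2, 0 and 4 of 7, beside 24.2%, 19.1% and 31.6%. The lowest adjusted p values were those of Ltb (0.0654 after etoposide and 0.0203 with the inhibitor against LPS) and of Il21r (0.0225 with the inhibitor against LPS). Leaving out 1 gradient at a time gave 0 to 1, 0 and 0 to 3 called genes in the 3 comparisons. Only left-out gradients that led to a call are named here, and calls present in only some of these fits are not taken as results. Without the LPS+ET gradient of LUL17 the profile of Ltb was called after etoposide (adjusted p = 0.00287, beside 4.82% of all genes). Against LPS, the profile of Il21r was called with the inhibitor without the LPS+ET+KU gradient of LUL15 (0.00461) or LUL17 (0.00969) and without the LPS gradient of LUL16 (0.0013). Il4ra was called without the LPS+ET+KU gradient of LUL17 (0.00370), and Il10 (0.00673) and Ltb (0.00298) without the LPS gradient of LUL16. These 3 fits against LPS called 6.97%, 22.7% and 14.2% of all genes, in the order LPS+ET+KU of LUL15, LPS+ET+KU of LUL17 and LPS of LUL16. The model of the study, with no term per gradient, called Ltb, Tnf and Il21r after etoposide, Il6 in LPS+ET+KU against LPS+ET, and Ltb and Tnf in LPS+ET+KU against LPS, and it also responds to a change of level. It called 31%, 8.01% and 32.7% of all genes in these comparisons.

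Ltb was the 1 gene called in a class of fractions with treatment alone, in heavy polysomes after etoposide. It measured 127, 86.1, 86.2 and 94.8 CPM there in LPS and 25.2, 28.7, 18.7 and 14.8 CPM in LPS+ET, and edgeR gave −2.26 ± 0.46 as the log2 fold change (adjusted p = 0.00326). The call was lost without the LPS+ET gradient of LUL17 (−2.21, adjusted p = 0.0121) or LUL18 (−2.13, adjusted p = 0.0152). In light polysomes the log2 fold change of Ltb was −2.10 (adjusted p = 0.0149) and in monosomes −1.71 (adjusted p = 0.0106), so the direction was the same in all 3 classes. With the pool term Ltb was called in light polysomes (−2.34, adjusted p = 1.65e-06) and monosomes (−1.78, adjusted p = 6.93e-06) too. In LPS+ET+KU the blocked fit called Ltb higher than in LPS+ET in light polysomes (1.15, adjusted p = 0.00724) and lower than in LPS in monosomes (−0.95), light polysomes (−1.19) and heavy polysomes (−1.31), with adjusted p of 0.00105, 0.00124 and 0.00633.

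Tnf, a proinflammatory cytokine, was lower after etoposide in 3 of 4 pools in light and in heavy polysomes. In light polysomes it measured 33.5, 19.9, 22.8 and 14.6 CPM in LPS and 3.91, 20.0, 5.19 and 3.47 CPM in LPS+ET (log2 fold change −1.61 ± 0.51, edgeR, adjusted p = 0.0398). In heavy polysomes it measured 4.45, 5.32, 8.97 and 5.39 CPM in LPS and 3.17, 19.5, 2.39 and 2.63 CPM in LPS+ET (−0.07 ± 0.71, adjusted p = 0.967). The heavy polysome log2 fold change of Tnf was −1.24 without the LPS+ET gradient of LUL16 (adjusted p = 0.128) and −1.27 without the whole pool (adjusted p = 0.0217). The difference between the classes was not tested beyond the profile test, in which Tnf had an adjusted p of 0.123. With the inhibitor, Tnf was at −1.996 in light polysomes (adjusted p = 0.0179) and −1.65 in monosomes (adjusted p = 0.0124) against LPS. The pool term led to calls of Tnf in both classes, at −1.76 and −1.17 after etoposide (adjusted p = 7.93e-04 in light polysomes and 0.00270 in monosomes) and at −2.14 and −1.61 with the inhibitor against LPS (2.13e-04 and 4.81e-05).

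Il6 in heavy polysomes measured 2.22, 2.56, 4.49 and 4.04 CPM in LPS, 3.03, 3.08, 3.41 and 3.43 CPM in LPS+ET and 16.6, 3.72, 11.2 and 10.53 CPM in LPS+ET+KU. Its log2 fold change there was 1.56 against LPS+ET (edgeR, adjusted p = 0.0562) and 1.46 against LPS (adjusted p = 0.0158). With the pool term both passed for Il6, at 1.59 (adjusted p = 0.00746) and 1.38 (adjusted p = 0.00338), as did the monosome difference from LPS+ET (1.73, and 1.61 with an adjusted p of 0.00458 when the pool was a term). Il21r in light polysomes measured 133, 125, 131 and 108 CPM in LPS and 87.9, 92.3, 96.0 and 86.7 CPM in LPS+ET, groups that did not overlap (log2 fold change −0.58, adjusted p = 0.0215, and 0.00358 with the pool term). With the inhibitor it was at −0.62 against LPS there (adjusted p = 0.0182, and 0.00225 with the pool term). In heavy polysomes the Il21r groups overlapped, at 180 to 210.2 CPM and 161 to 220.2 CPM.

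Counts of calls per class are set beside those of all genes. With treatment alone 0 of 7 genes were called in monosomes, beside 9.52%, 0.213% and 5.96% of all genes in the comparisons LPS+ET against LPS, LPS+ET+KU against LPS+ET and LPS+ET+KU against LPS. In light polysomes it was 0 of 7 beside 10.6%, 0.292% and 7.13%, and in heavy polysomes 1, 0 and 0 of 8 beside 9.69%, 0.572% and 7.95%. At an unadjusted p under 0.05, edgeR had 4, 1 and 3 of 7 in monosomes, 3, 2 and 2 of 7 in light polysomes and 2 of 8 in each comparison of heavy polysomes. The shares of all genes were 32.1%, 13.5% and 29.3% in monosomes, 32.6%, 15.3% and 32.2% in light polysomes and 31.8%, 14.9% and 32.9% in heavy polysomes. With the pool term the counts were 2, 1 and 3 of 7 in monosomes beside 24.6%, 5.62% and 23.2%, 3, 1 and 3 of 7 in light polysomes beside 25%, 5.35% and 24.1%, and 1, 1 and 2 of 8 in heavy polysomes beside 20.6%, 3.27% and 21.4%. Il10 was called in only 1 of these fits, in monosomes with the inhibitor against LPS (−0.76, adjusted p = 0.00972), and Il2ra and Il4ra in none.

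Other genes of cytokine signalling were counted in 5 lists without the 8 genes. Beside their counts stand 12.7% of all genes called after etoposide, 0.455% in LPS+ET+KU against LPS+ET and 10.7% in LPS+ET+KU against LPS, and with the pool term 26.7%, 6.36% and 28.1%. Of 16 other cytokine genes tested (47 named), 3 were higher and 1 lower in LPS+ET than in LPS, with a median log2 fold change of 0.78. The expression filter could be met in any group, so a gene near 0 in LPS was tested only where a treated group was higher. Such genes were Tnfsf4, Csf3, Tgfb2, Il15 and Il1b (0.161, 0.175, 0.361, 0.576 and 0.608 CPM in LPS). The counts and medians of the lists depend in part on this filter. Those with the largest change were Tnfsf4, the ligand of OX40 (0.161 CPM in LPS and 13.2 in LPS+ET, log2 fold change 6.27), Csf1, which sustains macrophages (1.38 and 16.4 CPM, 3.42), and Tgfb2 (0.361 and 2.92 CPM, 2.91). The lower one, Il16, was named after its value was seen (155 and 76.5 CPM, −1.13). With the inhibitor against LPS, 5 were higher and 0 lower (median 0.61), led by Tnfsf4 (5.94), the inflammatory cytokine Il1b (3.65, from 0.608 to 9.27 CPM) and Csf3, the granulocyte growth factor (3.64, from 0.175 to 2.65 CPM). With the pool term 6 cytokine genes were higher and 3 lower after etoposide, and 6 higher and 2 lower with the inhibitor against LPS. All named genes were called by edgeR at an adjusted p under 0.01. The monocyte marker Cd14 had groups without overlap, at 0.362 to 0.669 CPM in LPS, 1.28 to 4.19 in LPS+ET and 4.62 to 16.4 in LPS+ET+KU. Such groups were seen for 26.4%, 8.26% and 26.3% of all genes in the 3 comparisons. Fcgr3 was without overlap only between LPS (0.688 to 1.29 CPM) and LPS+ET+KU (2.52 to 5.12). The other myeloid markers in the table overlapped in every comparison, among them Lyz2 (14.9 to 36.7, 7.96 to 76.3 and 6.53 to 48.8 CPM). The part of myeloid cells in the cytokine values was not tested.

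The other 4 lists held receptor chains, signal transducers, feedback genes and adaptors. Of 30 other receptor chain genes tested, 0 were higher and 1 lower after etoposide (Tgfbr2, −0.83, from 49.8 to 30.4 CPM), with 3 higher and 3 lower under the pool term, and none passed with the inhibitor against LPS, where edgeR had 6 at an unadjusted p under 0.05 and 5 with the pool term. Of 11 Jak and Stat genes, 0 passed after etoposide (3 at an unadjusted p under 0.05, 3 with the pool term), and Jak1, a kinase of many cytokine receptors, was lower with the inhibitor against LPS (−1.17, from 945 to 455 CPM). Of 17 Socs and other feedback genes, 4 were higher and 3 lower after etoposide, led by Cish (2.12) and Socs1 (1.62), which restrain Jak signalling, and by the phosphatase Ptpn6 (−1.45, from 102 to 40.6 CPM). With the inhibitor against LPS 4 were higher and 4 lower, led by Cish (3.87), Ptpn6 (−2.13) and the phosphatase Ptprc (−1.51, from 959 to 363 CPM). Of 15 TNF receptor adaptors, 1 was higher (the deubiquitinase Cyld, 0.84) and 1 lower (Traf3, −0.74) after etoposide, and Traf3 was lower with the inhibitor against LPS (−0.77). No gene of the 5 lists passed in LPS+ET+KU against LPS+ET (edgeR, with 5, 4, 3, 2 and 1 at an unadjusted p under 0.05 in the order above), and with the pool term 2 cytokine genes were lower, 2 Jak and Stat genes higher and 1 feedback gene higher. After etoposide the median log2 fold changes were 0.30 for receptor chains, −0.01 for Jak and Stat genes, 0.21 for feedback genes and 0.10 for TNF receptor adaptors, against 0.03 for all genes.

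**Figure D5:**
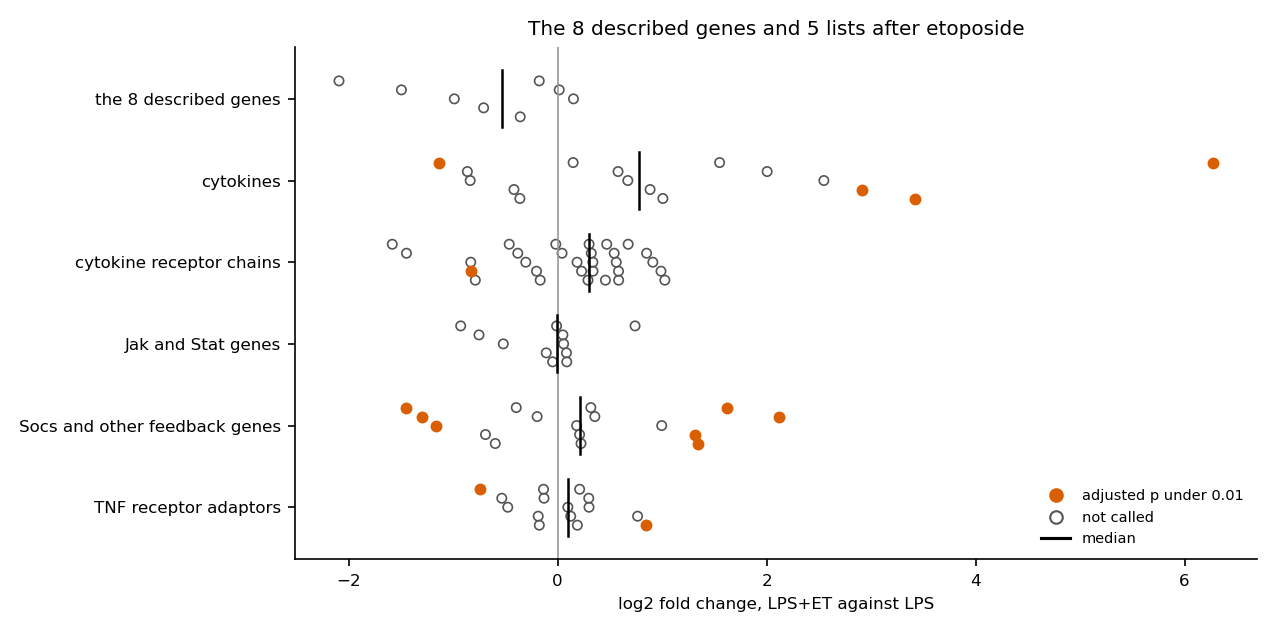
Log2 fold change of LPS+ET against LPS (horizontal axis) for the 8 described genes and 5 lists of cytokine signalling genes, 1 point per gene and a line at each median. Filled points passed an adjusted p of 0.01. The median is −0.53 for the 8 genes and 0.78 for other cytokine genes, of which Tnfsf4 lies at 6.27. Some of these other cytokine genes, Tnfsf4 among them, passed the expression filter only through treated gradients.

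Across the 12 gradients, the 3 neighbours on chromosome 17 had like patterns, with Pearson's r of log2 CPM at 0.88 for Lta and Ltb, 0.83 for Tnf and Ltb and 0.71 for Tnf and Lta. Il2ra and Il4ra ran opposite (−0.72), as did Il2ra and Tnf (−0.70). These values describe 12 gradients that share treatments and pools. Among 12747 genes, the patterns most like Ltb were those of Eps15l1 and Stard4 (r of 0.98 for both). Those most like the others were Arhgef2 and Il18 for Tnf (0.96 for both), Noc2l and Pip4k2a for Lta (0.97 for both), Hist1h1c and Snhg12 for Il6 (0.92 and 0.91) and Yeats4 and the gene listed as ENSMUSG00000070923 for Il10 (0.87 and 0.88). For the receptors they were Yipf6 and Vimp for Il2ra (0.96 for both), Rasa4 and Gramd1a for Il4ra (0.98 and 0.97) and Alkbh1 and Cflar for Il21r (0.94 for both).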

How the data were processed

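Sucrose gradient fractions of LPS-activated splenic B cells were sequenced by PolyRibo-3′ RNA-seq. Per the labels and methods, the authors loaded the same RNA concentration into each fraction library, mapped the tags to GRCm38, removed PCR duplicates with random barcodes and tallied tags at poly(A) sites per Ensembl gene. The deposited values are whole-number counts without normalization. The submitters' processing notes also name TopHat2 2.0.12, HTSeq and DESeq2 1.6.3. Because of the equal loading, the total of a library does not measure the mRNA in its fraction. No 2 of the 157 libraries were identical and 0 columns were left unused. Of the columns, 79 matched a single labelled sample, and 78 matched their treatment and fraction only.

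The genes and lists were chosen with earlier results of these data known. All 8 genes are named whatever their values, up to 3 called genes per list and comparison are named by the largest log2 fold change, and 2 genes per member by the highest Pearson r of log2 CPM (prior count 2). Lists of cell type markers described the cells. Gene and site positions are those deposited, read as 1-based after adding 1 to gene starts, gene ends and sites. Gene starts and ends were checked against GENCODE M21.

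Counts of fractions 4 to 16, or of a class, were summed per gradient and tested in edgeR 4.0.16 (R 4.3.3, TMM, default expression filter, quasi-likelihood F-test, two-sided) on the 12 gradients without other covariates than treatment. A call needed an adjusted p (Benjamini-Hochberg over all genes tested) under 0.01. Heavy shares were tested with limma 3.58.1 on the logit scale (offset of 0.5 counts) for genes with a mean of 100 counts or more over the 12 gradients. Fraction profiles were tested in edgeR as an interaction. The edgeR fits with and without the pool term, DESeq2 on the summed fractions, the share test and the profile test were tested on simulated counts. These counts held no pool or gradient effect, and the other alternatives were not simulated.

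Pairing by pool was checked before calls were compared. For gradients sharing a pool, Pearson r of the deviations from treatment means was 0.35 to 0.89 (median 0.67), above 0.1 in 12 of 12 pairs. For gradients of different pools it was −0.67 to 0.39, above 0.1 in 9 of 36. The pools are the codes LUL15 to LUL18 of the table's headers, which do not say what the codes mark. On this check they were held to pair the gradients, and the blocked fit by pool is printed where it changes a call. Alternatives were DESeq2 1.42.0, RLE size factors, no filter, the pool block, equal weight per fraction, the 8 gradients compared alone, other share scalings and minimums, the profile model of the study, a threshold of 0.05 and each gradient left out. Leaving out pool LUL16, libraries under 100000 counts, or the fraction 15 library of LPS+ET in LUL15, where Cdkn1a was at 71.4 CPM, was added after seeing the data.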

Additional observations from a re-analysis of the deposited data

Results flagged for a closer look

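Of 45 groups of 4 gradients, 6 held a value that Dixon's test at 95% set apart from the other 3, where chance gives about 1 in 20. Pool LUL16 held 5 of the 6. In LPS+ET its Il10 level was 41.1 CPM against 19.2 to 21.9, its Tnf level 18.1 CPM against 2.82 to 4.63, its Il10 heavy share 40.1% against 19.5% to 22.1%, and its Il6 heavy share 65.0% against 26.2% to 31.7%. In LPS+ET+KU the Ltb level of LUL16 was 147.2 CPM against 24.4 to 38.03. The remaining value was the Il21r level of the LPS+ET+KU gradient of LUL17, 188.7 CPM against 131.9 to 138.1.

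In the treated LUL16 gradients Cdkn1a was lower than in the other gradients of its group (501 and 402 CPM), Lck was higher (294 and 372 CPM against 80.2 to 138) and Lyz2 was lower (7.96 and 6.53 CPM against 25.2 to 76.3). What sets these gradients apart was not tested.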

How the results depend on the processing

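Numbers of the 8 genes called (7 in monosomes, light polysomes, shares and profiles) are given for LPS+ET against LPS, LPS+ET+KU against LPS+ET and LPS+ET+KU against LPS, in that order, where they differ from the report. For the summed fractions these were 3, 1 and 2 with the pool as replicate block, 2, 1 and 0 with DESeq2, 4, 1 and 3 without pool LUL16, and 2, 1 and 0 at an adjusted p under 0.05, and for the first comparison 1 with no filter and 1 with only the 8 gradients compared. In monosomes they were 2, 1 and 3 with the block, 1, 0 and 1 with DESeq2, no filter, only the 8 gradients compared and an adjusted p under 0.05, 1, 1 and 0 without pool LUL16, and 1, 0 and 0 without libraries under 100000 counts. In light polysomes they were 3, 1 and 3 with the block, 2, 0 and 2 with DESeq2 and without pool LUL16, 1, 0 and 1 with no filter and only the 8 gradients compared, 3, 0 and 2 at an adjusted p under 0.05, and 1 for the first comparison with equal weight per fraction. In heavy polysomes they were 1, 1 and 2 with the block, 1, 0 and 1 with DESeq2, 1, 1 and 3 without pool LUL16, 2, 0 and 1 at an adjusted p under 0.05, and 0 for the first comparison with equal weight per fraction. For the profile they were 3, 1 and 2 with the model of the study and 0, 0 and 2 at an adjusted p under 0.05. No share was called under any alternative. Leaving out 1 gradient gave 0 to 2, 0 to 1 and 0 to 2 for the summed fractions, 0 to 1 in each comparison of monosomes, 0 to 2, 0 and 0 to 1 in light polysomes, 0 to 1, 0 to 1 and 0 to 2 in heavy polysomes, and 0 to 1, 0 and 0 to 3 for the profile.

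Over all genes the alternatives called 1082 to 3403 for the summed fractions after etoposide (1618 in the report), 0 to 811 (58) and 755 to 3589 (1361), and the block gave 3403, 811 and 3589. The cause of these moves was not tested.

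Directions that turned belonged to values not called. The log2 fold change of Il2ra after etoposide was −0.0028 with DESeq2, −0.018 with no filter and −0.057 with the block. In LPS+ET+KU against LPS+ET it was −0.037 for Il10 with equal weight per fraction and 0.084 for Tnf without pool LUL16, and against LPS it was 0.029 for Il21r with equal weight per fraction. Logit differences of the heavy share in LPS+ET+KU against LPS+ET turned for Il6 (0.115 with class scaling, 0.49 without libraries under 100000 counts, 0.14 without pool LUL16), Il10 (−0.061 with counts as deposited), Il4ra (0.0027 with class scaling), Il21r (−0.23 with counts as deposited) and Ltb (0.00071 without the LPS+ET library of fraction 15 in LUL15), and against LPS for Il4ra (−0.12 with counts as deposited). Leaving out 1 gradient gave ranges across 0 for the log2 fold change after etoposide of Il2ra (−0.19 to 0.22) and Il4ra (−0.064 to 0.32). In LPS+ET+KU against LPS+ET they were −0.0083 to 0.43 for Il2ra, −0.015 to 0.46 for Il10, −0.015 to 0.36 for Il4ra, −0.022 to 0.23 for Il21r and −0.92 to 0.62 for Tnf, and against LPS −0.20 to 0.13 for Il10. Logit ranges were −0.19 to 0.065 for Ltb after etoposide. With the inhibitor against LPS+ET they were −0.32 to 0.23 for Il6, −0.011 to 0.36 for Il10, −0.10 to 0.090 for Il4ra, −0.23 to 0.027 for Ltb and −0.51 to 0.21 for Tnf.

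Lta rested on 6 to 40 counts per gradient and was not in the profile and share tests, and Il6 after etoposide rested on 33 to 61.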
